A study of Mus musculus with 5 samples.

Results

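The HoxD genes are the 9 homeobox genes of the HoxD cluster on mouse chromosome 2 (Hoxd1, Hoxd3, Hoxd4, Hoxd8, Hoxd9, Hoxd10, Hoxd11, Hoxd12 and Hoxd13), and they were chosen by name, as every member of the cluster. Each of the 9 had 1 matched probe with 1 spot per array, among 19897 genes with a matched probe and 38 Hox genes analysed here. They were followed through the differentiation of mouse embryonic stem cells (ES) into motor neurons (MNs) on 5 one-colour Agilent expression arrays, 1 per time point. All samples were total RNA of wild-type male cells. Day2 was embryoid bodies (EBs, floating aggregates of differentiating cells) after 8 h of retinoic acid (RA), Day3 and Day4 were EBs after 1 and 2 days of RA, and Day7 was labelled as MNs after 5 days of RA. The protocol in the labels gives RA and Shh from day 2 to day 5, and the methods of the study name the smoothened agonist SAG in place of Shh. The tissue label of Day7 is EBs, as for the 3 time points before it, and the labels name no sorting of the MNs.

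Hox genes encode transcription factors that give cells their position along the head-to-tail axis, and within a cluster the 3′ genes are switched on earlier and more anteriorly than the 5′ genes. RA is the signal that opens the 3′ genes in the hindbrain and cervical spinal cord, whereas FGF, Cdx factors and Gdf11 act on the more 5′ genes at brachial, thoracic and lumbar levels. In MNs the Hox factors, working with the TALE homeodomain cofactors of the Pbx and Meis families, set columnar and pool identity. The HoxD cluster is best known for its role in limb and digit patterning, and its 3′ genes are also expressed in the hindbrain and spinal cord.

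The upstream sequences of 5 HoxD genes are shown because these genes carry the results: Hoxd3 and Hoxd4 changed most, Hoxd8 and Hoxd1 rose less, and Hoxd13 fell. Each is the 250 bases before the start of the gene in RefSeq (mouse build GRCm38.p6, plus strand). Capitals mark matches on either strand to AGGTCA (a half-site bound by RA receptors), TTTATG (a core bound by Cdx factors), TAATTA (a homeodomain core) and TATAAA (the TATA box).
Hoxd1, chr2:74762730-74762979: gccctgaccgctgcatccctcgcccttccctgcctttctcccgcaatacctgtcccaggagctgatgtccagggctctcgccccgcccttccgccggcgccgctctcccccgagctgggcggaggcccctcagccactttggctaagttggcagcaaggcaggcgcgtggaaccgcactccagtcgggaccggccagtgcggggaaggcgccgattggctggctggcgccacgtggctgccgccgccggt
Hoxd3, chr2:74711743-74711992: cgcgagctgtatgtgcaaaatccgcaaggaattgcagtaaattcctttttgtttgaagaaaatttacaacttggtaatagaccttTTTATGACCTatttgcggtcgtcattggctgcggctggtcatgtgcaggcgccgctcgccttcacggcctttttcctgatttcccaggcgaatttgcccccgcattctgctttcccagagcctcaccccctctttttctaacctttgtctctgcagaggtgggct
Hoxd4, chr2:74721728-74721977: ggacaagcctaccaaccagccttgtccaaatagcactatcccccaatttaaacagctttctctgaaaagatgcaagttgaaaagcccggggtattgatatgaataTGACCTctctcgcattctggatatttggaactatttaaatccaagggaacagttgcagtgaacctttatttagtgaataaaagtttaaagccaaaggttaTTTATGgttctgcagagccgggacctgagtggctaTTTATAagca
Hoxd8, chr2:74704365-74704614: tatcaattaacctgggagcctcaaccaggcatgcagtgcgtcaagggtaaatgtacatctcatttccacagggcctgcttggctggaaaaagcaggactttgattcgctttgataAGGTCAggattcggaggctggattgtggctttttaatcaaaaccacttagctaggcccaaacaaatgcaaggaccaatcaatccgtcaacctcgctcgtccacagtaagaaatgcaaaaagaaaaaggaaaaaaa
Hoxd13, chr2:74667975-74668224: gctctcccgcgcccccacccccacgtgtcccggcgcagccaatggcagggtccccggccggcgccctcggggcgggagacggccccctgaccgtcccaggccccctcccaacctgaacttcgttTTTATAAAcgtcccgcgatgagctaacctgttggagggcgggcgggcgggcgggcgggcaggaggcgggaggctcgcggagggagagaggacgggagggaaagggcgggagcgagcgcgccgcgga

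Hoxd3 and Hoxd4 both held an AGGTCA match, at -161 and -145 (the base before the start is -1), and both held a TTTATG match, at -165 and -45. The 2 matches of Hoxd3 overlapped. Hoxd8 held AGGTCA at -135, and Hoxd1 held none of the 4 motifs. Over the 10 HoxD windows of the table, in which Hoxd11 has 2 starts, AGGTCA lay in 4 (Hoxd3, Hoxd4, Hoxd8 and Hoxd10) and TTTATG in 3 (Hoxd3, Hoxd4 and Hoxd11). Over all 32851 windows of the same length, 14.0% held AGGTCA, 10.8% TTTATG, 4.84% TAATTA and 12.4% TATAAA. The TATA motif was found upstream of Hoxd4, at -10, and of Hoxd13, where the match reads on both strands and overlaps itself. The half-site in direct repeat with a spacing of 5 or 2 bases, the usual RA response element, was found in 0.00913% of windows for each spacing and in none of the HoxD windows. The GC content of the windows ran from 40.4% (Hoxd4) to 74.4% (Hoxd13), with 71.6% for Hoxd1 and 49.2% for Hoxd3, beside a median of 52.4% over all windows. A match is a description of letters and not a bound site.

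The Day2 array stood apart from the others. On it 91.7% of genes were well above background, a flag set for each spot by the scanner software, against 73.1% for ES cells and 72.7%, 77.6% and 76.2% for Day3, Day4 and Day7. The array also carries 96 probes for ERCC sequences, foreign to the mouse, of which 65.6% passed that flag on Day2 and between 4.17% and 9.38% elsewhere. The 95th percentile of the ERCC probe signals was 297 on Day2 against 98.7 for ES cells, 15.0 for Day3, 16.4 for Day4 and 32.9 for Day7. Day7 alone was on the second slide, so its slide and its time point cannot be told apart. Because each time point had a single array, replicate error could not be estimated, no p-value was computed, and 2-fold served as a fixed rule of size. The ± given with a signal is the scanner software's own error of that spot, which covers technical error only. Signals are those of the scanner before any normalization between arrays, and folds are after quantile normalization. A fold written as "at least" is against an array on which the probe was not well above background, where the probe was taken at the lowest level read as well above background or at its own level if that was higher.

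The labels of Day4 and Day7 were checked against cell type markers. On Day7, 10 of 11 measured MN genes (Mnx1 had no matched probe) and 11 of 12 pan-neuronal genes were at least 2-fold above ES cells. Of 15 pluripotency genes 0 were raised and 12 were lowered. Over all genes 19.7% were raised and 19.4% lowered. Of 12 neural progenitor genes 8 were raised on Day7, Fabp7 (10.39 on the log2 scale) and Nkx6-1 (7.59) among them. The 2 lowered were Pax6 (-1.6) and Olig2 (-2.98). On Day4 8 of the progenitor genes were raised and 0 lowered, beside 13.5% and 11.5% of all genes. Chat, the enzyme that makes acetylcholine, was below the background flag in ES cells (4.25 after quantile normalization, log2) and stood at 12.21 on Day7. In these bulk samples, fewer cells of a type and less RNA per cell cannot be told apart.

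Few HoxD genes were read in ES cells, where 2 of 9 were well above background (Hoxd4 and Hoxd13), beside 73.1% of all genes. Day2 had 7 (91.7% of all genes), Day3 had 6 (72.7%), Day4 had 7 (77.6%) and Day7 had 4 (Hoxd1, Hoxd3, Hoxd4 and Hoxd8; 76.2%), so that on Day3 and Day4 the share of HoxD genes read was near that of all genes. Of the 7 on Day2, 0 exceeded the 95th percentile of the ERCC probes on that array, whereas 1 of 2 did in ES cells (Hoxd13), 6 of 6 on Day3, 6 of 7 on Day4 and 4 of 4 on Day7.

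**Figure D1:**
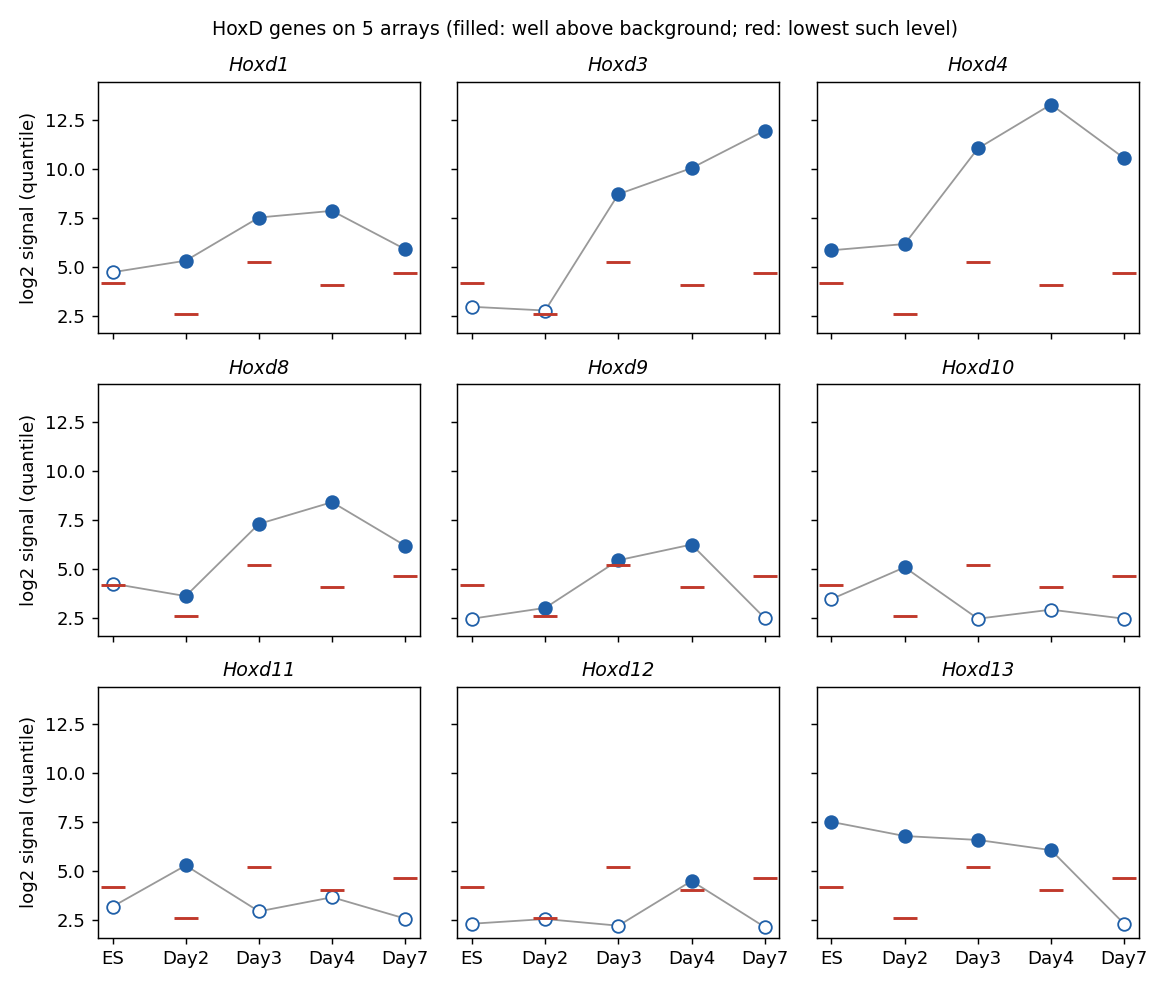
Each panel shows 1 HoxD gene on the 5 arrays (x axis) as quantile-normalized log2 signal (y axis), with filled points well above background, open points not, and red marks at the lowest level read as well above background on that array. Hoxd3 climbed to 11.94 on Day7, Hoxd4 to 13.27 on Day4, and Hoxd13 went from 7.50 in ES cells to an open point on Day7.

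Hoxd3 and Hoxd4 gave the largest folds and bounds of the cluster. Hoxd4, a gene of the posterior hindbrain and cervical spinal cord, gave a processed signal of 58.3 ± 10.1 in ES cells, then 166 ± 17.1 at Day2, 1710 ± 171 at Day3, 5420 ± 542 at Day4 and 2100 ± 210 at Day7. It was well above background on all 5 arrays, and its order was Day4, Day7, Day3, Day2 and ES cells, with neighbours in that order further apart than the sum of their scanner errors. After quantile normalization the levels were 5.84, 6.16, 11.03, 13.27 and 10.53 on the log2 scale, which puts Day3 above Day7, so the order of these 2 depended on the scaling. Hoxd4 was 1.25-fold above ES cells on Day2 (a log2 difference of 0.32, scanner error 0.29), 36.4-fold on Day3, 172-fold on Day4 and 25.7-fold on Day7. It was 29.2-fold higher on Day3 than on Day2 and 4.74-fold higher on Day4 than on Day3. The Day2 value depended on the scaling: its log2 difference from ES cells was 1.28 on the 75th percentile scale and 1.51 without normalization, both past 2-fold, and the step from Day2 to Day3 was then 4.09 and 3.36. Its signal in ES cells lay under the 98.7 of the ERCC probes there, and with that level as the floor its log2 difference on Day4 was at least 6.69 in place of 7.43.

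Hoxd3, whose loss is known to alter the first neck vertebrae, had signals of 8.19 ± 8.22 in ES cells and 22.2 ± 5.03 on Day2, neither well above background. Its signals were 315 ± 31.9 on Day3, 604 ± 60.4 on Day4 and 5240 ± 525 on Day7, so every later array exceeded the one before. Against the lowest level read as well above background in ES cells, Hoxd3 was at least 23.0-fold higher on Day3, at least 57.6-fold on Day4 and at least 218-fold on Day7. From Day4 to Day7 it rose 3.78-fold. With the ERCC level as the floor the Day7 bound on the log2 scale was 5.36 in place of 7.77.

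Hoxd1, the most 3′ gene of the cluster, had signals of 26.8 ± 8.46 in ES cells (not well above background), then 113 ± 12.2 at Day2, 130 ± 13.9 at Day3, 131 ± 13.3 at Day4 and 70.6 ± 9.79 at Day7. The signals of Day3 and Day4 differed by less than their scanner error. It was at least 1.5-fold above ES cells on Day2, at least 6.87-fold on Day3, at least 8.71-fold on Day4 and at least 2.25-fold on Day7. The Day3 and Day4 arrays were the highest, and Day7 lay between them and ES cells. The signals of Day2 and Day3 differed by less than the sum of their errors. From Day2 to Day3 the log2 change of Hoxd1 was 0.2 without normalization, against 2.2 after quantile normalization.

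In the middle of the cluster, Hoxd8 and Hoxd9 rose with the 3′ genes and fell by Day7. Hoxd8, a trunk-level gene, had signals of 19.5 ± 8.24 in ES cells (not well above background), then 52.6 ± 6.67 at Day2, 110 ± 12.2 at Day3, 195 ± 19.6 at Day4 and 88.2 ± 11.0 at Day7. It was at least 8.23-fold above ES cells on Day3, at least 17.8-fold on Day4 and at least 3.81-fold on Day7. No fold is given for Day2, because its normalized level there did not exceed that taken for ES cells. Hoxd9, which acts with its paralogs in lumbar MNs, had signals of 7.31 ± 7.33, 33.0 ± 5.30, 25.8 ± 5.43, 40.6 ± 4.63 and 6.10 ± 6.12 in that order of arrays, well above background from Day2 to Day4. The 3 middle signals lay close together, and Day2 and Day3 differed by less than the sum of their errors. Hoxd9 was at least 2.39-fold above ES cells on Day3 and at least 4.18-fold on Day4, and it was at least 3.0-fold lower on Day7 than on Day4.

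Hoxd10, Hoxd11 and Hoxd12 gave almost no readable signal. Hoxd10, a gene of lumbar MNs, had signals of 10.8, 102, 4.70, 2.93 and 6.06 from ES cells to Day7, and Hoxd11, a gene of the forearm and lower trunk, had 8.65, 112, 5.11, 6.68 and 6.22. Both passed the background flag only on Day2, at signals below the 297 of the ERCC probes there. Quantile-normalized, Hoxd10 was at least 1.87-fold and Hoxd11 at least 2.15-fold above ES cells on Day2, which made Hoxd11 the sole HoxD gene past 2-fold that day. Hoxd12 had signals of 7.13, 13.2, 4.56, 11.4 and 5.68, was well above background on Day4 alone and was at least 1.24-fold above ES cells there. On Day4 its 11.4 lay below the 16.4 of the ERCC probes.

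Hoxd13, the most 5′ gene, which patterns the digits, ran the other way. Its signals were 191 ± 20.4 in ES cells, then 223 ± 22.6 at Day2, 63.8 ± 7.88 at Day3, 35.6 ± 4.14 at Day4 and 5.88 ± 5.90 at Day7. ES cells and Day2 were high, and Day7 was the one array on which it was not well above background. Quantile-normalized, it was 1.64-fold lower on Day2 than in ES cells, 1.89-fold lower on Day3, 2.70-fold lower on Day4 and at least 7.16-fold lower on Day7. The difference between ES cells and Day2 depended on the scaling: on the 75th percentile scale the levels were -2.23 in ES cells and -2.24 on Day2, and without any normalization Day2 was the higher. After normexp background correction the log2 difference on Day4 was -0.84, short of 2-fold.

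**Figure D2:**
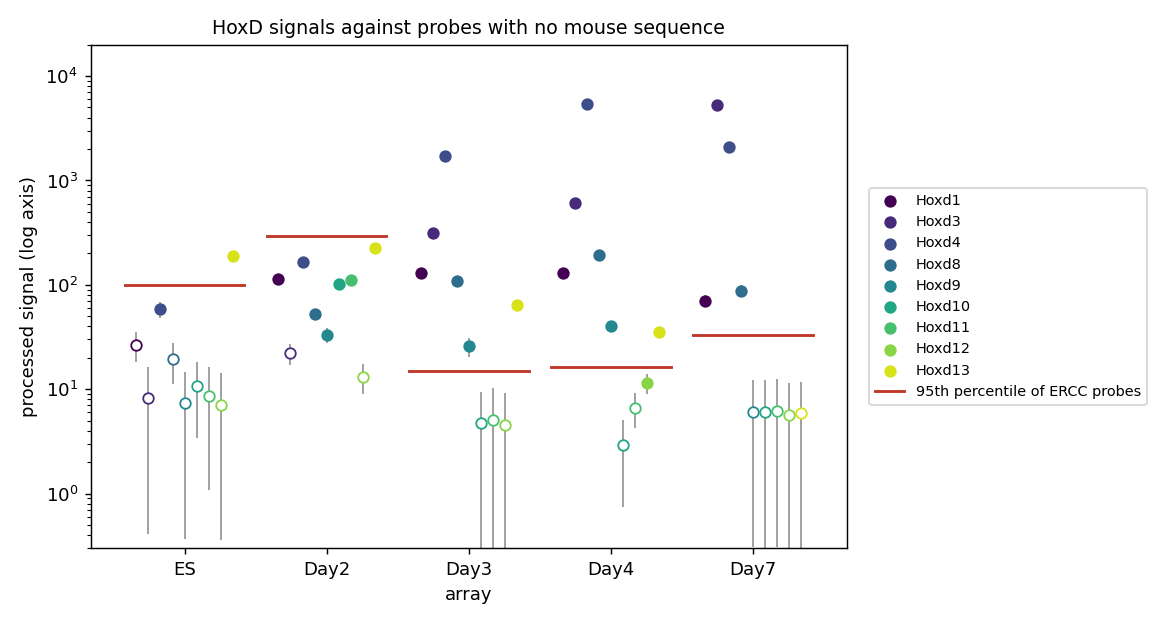
Processed signal of the 9 HoxD genes (y axis, log axis) on each array (x axis), with scanner error bars shortened where the error exceeds the signal, filled points well above background and open points not. Red lines give the 95th percentile of the ERCC probes, 297 on Day2 and 15.0 on Day3, and all 9 genes lie below the line on Day2.

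Counted over the cluster, 1 of 9 HoxD genes (Hoxd11) was at least 2-fold above ES cells on Day2, beside 9.88% of all genes. On the 75th percentile scale, which shifts each array without changing its spread, 5 of 9 passed on Day2 (Hoxd1, Hoxd4, Hoxd8, Hoxd10 and Hoxd11), beside 19.3% of all genes raised and 6.45% lowered. After quantile normalization 10.4% were lowered. The count was 5 of 9 on Day3 (11.9% of all genes), 5 of 9 on Day4 (13.5%) and 4 of 9 on Day7 (19.7%). Hoxd1, Hoxd3, Hoxd4 and Hoxd8 were among them on all 3 later days, and Hoxd9 on Day3 and Day4. On Day3 the 75th percentile scale moved the shares of all genes to 10.7% raised and 11.5% lowered, against 11.9% and 7.83%. With the 95th percentile of the ERCC probes as the floor, 2 of 9 passed on Day3 and 2 of 9 on Day7, Hoxd3 and Hoxd4 both times. On the 75th percentile scale Hoxd9 fell short of 2-fold on Day3, at 0.98 on the log2 scale, as it did without normalization (0.47). After normexp background correction Hoxd9 did not pass on Day3 or Day4, nor Hoxd1 and Hoxd8 on Day7. In the other direction Hoxd13 alone was at least 2-fold lower on Day4, beside 11.5% of all genes, and on Day7, beside 19.4%. It also passed on Day3 on the 75th percentile scale (-1.08) and without normalization (-1.58), beside -0.92 after quantile normalization.

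Between neighbouring time points, after quantile normalization, 5 of 9 HoxD genes rose from Day2 to Day3 and 5 of 9 fell from Day4 to Day7. Those of the first step rose at least 2-fold (Hoxd1, Hoxd3, Hoxd4, Hoxd8 and Hoxd9), beside 11.9% of all genes. From Day3 to Day4 3 of 9 rose (Hoxd3, Hoxd4 and Hoxd8, by 2.50-, 4.74- and 2.16-fold), beside 2.84%. Hoxd8 fell short of 2-fold in this step after normexp (0.85 on the log2 scale), Hoxd3 and Hoxd8 did so without normalization (0.94 and 0.82), and Hoxd9 passed on the 75th percentile scale (1.1). From Day4 to Day7 1 of 9 rose, Hoxd3, beside 14.6%, and 5 of 9 fell, beside 14.7%. Those 5 were Hoxd4 (6.71-fold), Hoxd8 (4.68-fold), Hoxd1 (3.87-fold), Hoxd9 (at least 3.0-fold) and Hoxd13 (at least 2.65-fold). Hoxd9 and Hoxd13 did not pass in this step after normexp (-0.75 and -0.68 on the log2 scale), and without normalization the 2 that passed were Hoxd4 and Hoxd8. The Day2 array is one side of the first of these steps, and the share of all genes that rose or fell in it depended on the scaling: on the 75th percentile scale 5.36% rose and 15.7% fell, against 11.9% and 7.14% after quantile normalization. With the 75th percentile shift 3 HoxD genes rose from Day2 to Day3 (Hoxd3, Hoxd4 and Hoxd8) and 3 fell (Hoxd10, Hoxd11 and Hoxd13), whereas 5 of 9 had risen from ES cells to Day2. On that scale the log2 change of Hoxd1 was at least 1.85 on Day2 against ES cells and 0.93 on Day3 against Day2, and that of Hoxd9 over the second of these steps was 0.38, or -0.35 without normalization. Whether Hoxd1 and Hoxd9 rose 2-fold in that step thus depended on the scaling.

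Hoxd3 and its neighbour Hoxd4 parted after Day4. Over the step from Day4 to Day7 the log2 change was 1.92 for Hoxd3 and -2.75 for Hoxd4, a difference of 4.67 between genes read on the same 2 arrays. It was 4.49 on the 75th percentile scale and 4.51 after normexp background correction. Against Hoxd8 the difference was 4.14 and against Hoxd1 3.87. These were 4.26 and 4.01 on the 75th percentile scale, and smaller after normexp, at 3.3 and 2.98. Over the step from Day3 to Day4 the log2 change was 1.32 for Hoxd3, 2.24 for Hoxd4 and 1.11 for Hoxd8. In RefSeq the locus of Hoxd4 lies inside that of Hoxd3, on the same strand, and which transcripts of the locus each probe reads was not analysed here.

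Set against their paralogs, Hoxd3 and Hoxd4 passed 2-fold at a later time point after quantile normalization. On Day2 the genes of paralog groups 3 and 4 were at least 2-fold above ES cells in all 5 cases of the other clusters (2 HoxA, 2 HoxB and 1 HoxC gene) and in neither of the 2 for HoxD. On Day3, Day4 and Day7 both HoxD genes were past 2-fold, as were all 5 of the others. In group 1, the log2 change on Day2 was at least 7.07 for Hoxb1 and at least 0.58 for Hoxd1. In group 3 it was 5.69 for Hoxa3 and 4.40 for Hoxb3, while Hoxd3 was not well above background on either array. In group 4 it was 1.96 for Hoxa4, 6.66 for Hoxb4, at least 4.12 for Hoxc4 and 0.32 for Hoxd4. By Day4 the group 4 values were 5.80, 7.83, at least 8.69 and 7.43, so Hoxd4 lay within the range of its paralogs, and on Day7 it was the lowest of them at 4.68, beside 5.19, 7.80 and at least 10.05. In group 3 Hoxd3 had at least 7.77 on Day7, beside 6.97 for Hoxa3 and 5.49 for Hoxb3. On the 75th percentile scale Hoxd1 and Hoxd4 passed 2-fold on Day2 as well. All these differences share the ES array.

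**Figure D3:**
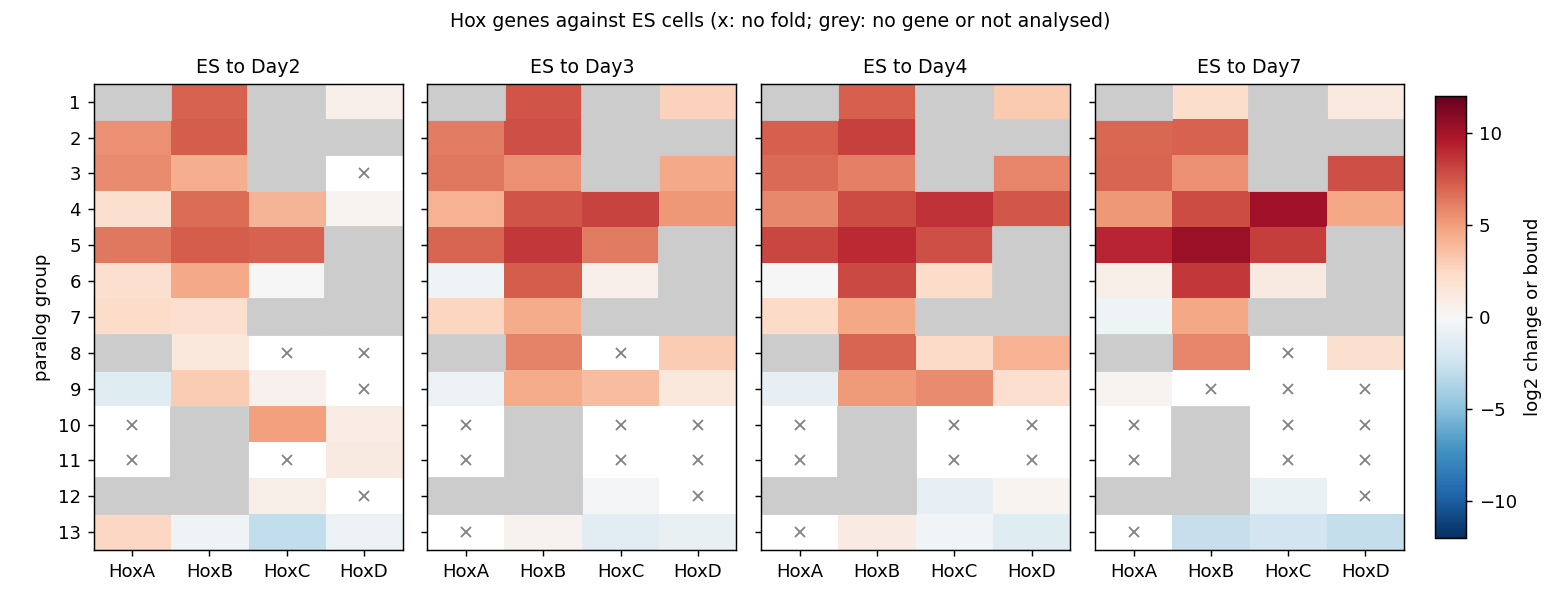
Log2 change from ES cells, or its bound, for 38 Hox genes (colour scale), by paralog group (rows) and cluster (columns), in 1 panel per later time point. White cells with a cross had no fold and grey cells have no gene or were not analysed, and in the HoxD column groups 1, 3 and 4 are pale or crossed on Day2 and darker red on Day3 and Day4.

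Of groups 8, 9 and 13, several genes in more than 1 cluster were lower on Day7 than on Day4. Over all 29 Hox genes of the other clusters, 10 were lowered 2-fold and 4 raised in this step, beside 14.7% and 14.6% of all genes. The falls were not limited to these groups, since Hoxb1 changed by -5.05 and Hoxa7 by -2.79 on the log2 scale. Hoxd9, Hoxb9 and Hoxc9 were each well above background on Day3 and Day4 and not on Day7, with falls from Day4 of at least 1.59, 4.67 and 4.87 on the log2 scale, whereas Hoxa9 rose by 1.23. In group 8, Hoxd8 fell by 2.23 from Day4 to Day7, Hoxb8 by 1.09 and Hoxc8 by at least 1.81. In group 13, Hoxd13, Hoxb13 and Hoxc13 were each well above background on the arrays from ES cells to Day4 and on none of the 3 probes on Day7, with values against ES cells of at least -2.84, -2.79 and -2.32. Before that, the changes from ES cells at Day2, Day3 and Day4 were -0.71, -0.92 and -1.43 for Hoxd13, -0.49, 0.42 and 1.01 for Hoxb13, and -2.91, -1.23 and -0.36 for Hoxc13. These are quantile-normalized values, and that of Hoxd13 on Day2 was -0.01 on the 75th percentile scale and 0.22 without normalization. Hoxa13 was well above background on Day2 alone.

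The genes that flank the cluster were raised 2-fold on none of the 3 later days. Evx2, a homeobox gene beside Hoxd13, had signals of 8.91, 113, 4.91, 2.36 and 6.42 from ES cells to Day7 and, like Hoxd10 and Hoxd11, was well above background on Day2 alone, where it was at least 2.19-fold above ES cells. Lnpk, which shapes the endoplasmic reticulum, had 233, 339, 212, 130 and 528, and its largest difference from ES cells was 1.70-fold, on Day7. Mtx2, part of a mitochondrial import complex and the neighbour of Hoxd1, had 7890, 9050, 5120, 3890 and 12900 and was 1.82-fold above ES cells on Day7. Hoxd3os1, an antisense transcript at the start of Hoxd3, had 7.62, 79.8, 22.3, 11.2 and 22.7 and was well above background on Day2 alone. Over a list of 17 measured genes of the wider region, 1 was raised 2-fold and 2 were lowered on Day2, 0 were raised and 1 was lowered on Day3, 0 and 2 on Day4, and 3 and 4 on Day7. Over all genes 9.88% were raised and 10.4% lowered on Day2, 11.9% and 7.83% on Day3, 13.5% and 11.5% on Day4, and 19.7% and 19.4% on Day7. On the 75th percentile scale 2 of the 17 were raised and 0 lowered on Day2, beside 19.3% and 6.45% of all genes. Probes for the long non-coding RNA Haglr and for the precursor of miR-10b, both within the cluster, were not among those matched.

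Most genes of the RA response were raised from Day2 on. Of 17 measured, 13 had passed 2-fold by Day2, and 15, 14 and 15 did so at Day3, Day4 and Day7. The shares of all genes raised were 9.88%, 11.9%, 13.5% and 19.7% at these 4 time points. Rarb, an RA receptor that RA itself induces, changed by 5.27 on the log2 scale by Day2, and Cyp26a1, which breaks RA down, by 7.16. Cyp26a1 then held at 8.90 on Day3 and 8.72 on Day4 and was at 1.58 on Day7, so that like Hoxd1, Hoxd4 and Hoxd8 it was lower on Day7 than on Day4.

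Among 8 caudal signals, 2 were raised and 1 lowered on Day2, 3 and 1 on Day3, 3 and 2 on Day4, and 1 and 2 on Day7. The shares of all genes were 9.88% and 10.4% on Day2, 11.9% and 7.83% on Day3, 13.5% and 11.5% on Day4, and 19.7% and 19.4% on Day7. Cdx1, a factor of the caudal embryo, had normalized log2 levels of 9.07, 13.82, 13.06, 11.45 and 8.26 from ES cells to Day7. Cdx4 and Wnt3a were not well above background on any array. Cdx2 was 6.79 in ES cells and not well above background on Day7, as was the case for Hoxd13. Gdf11, a signal of the lumbar level, changed by 1.45 on Day3 and 1.98 on Day4.

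Of the 9 TALE cofactors, 3 were raised on Day2, 5 on both Day3 and Day4, and 6 on Day7, and none was lowered 2-fold. Meis1 changed by 0.68, 3.13, 3.75 and 5.15 at Day2, Day3, Day4 and Day7, and like Hoxd3 was highest on Day7. Another list held 19 genes of the Polycomb complexes and of opposing histone demethylases, whose products keep silent Hox clusters closed or open them. Of these, 1 was raised and 2 lowered by Day2, 5 and 3 by Day3, 7 and 3 by Day4, and 5 and 6 by Day7. The shares of all genes were 9.88% and 10.4% on Day2, 11.9% and 7.83% on Day3, 13.5% and 11.5% on Day4, and 19.7% and 19.4% on Day7. On Day3 the 3 lowered genes were the Polycomb genes Eed (-1.65), Jarid2 (-1.95) and Phc1 (-1.53). Of the 5 raised genes, 4 were also Polycomb components: Cbx8 changed by 2.08, Ring1 by 1.85, Phc2 by 1.56 and Cbx2 by 1.29. Of the demethylases, Kdm6b changed by 1.49 on Day2 and 1.56 on Day3.

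Markers of other cell types that also express HoxD genes were read on the same arrays. Of 12 mesoderm markers, 6 passed the background flag in ES cells, then 12, 5, 8 and 7 at Day2, Day3, Day4 and Day7, and their summed normalized signal lay between 7454 on Day2 and 13801 on Day7, of which Kdr alone made up from 79.9% to 93.2%. Of the 12, 1 was raised 2-fold and 2 lowered on both Day2 and Day3, and 3 were raised and 3 lowered on both Day4 and Day7. On Day2 1 and 2 of 12 were near the shares over all genes, 9.88% raised and 10.4% lowered, as were 3 and 3 on Day7 (19.7% and 19.4%). Meox1, a somite marker and the one raised on Day3, changed by at least 5.16 on Day3 and Hand2, a limb and heart marker, by at least 3.87 on Day4. Mesp1 and Prrx1 were not well above background on the arrays other than Day2, and T was not from Day3 on. Of 9 endoderm markers, between 6 and 8 were well above background on each array, with a summed signal from 12976 on Day4 to 28209 on Day7, of which Cdh1 was the brightest part up to Day4 (from 50.9% to 94.4%) and Foxa2 on Day7 (63.3%), and Afp was well above background on none. Of these 9, 2 were raised 2-fold and 1 lowered on Day2, 6 and 0 on Day3, 6 and 1 on Day4, and 3 and 3 on Day7. The shares of all genes were 9.88% and 10.4% on Day2, 11.9% and 7.83% on Day3, 13.5% and 11.5% on Day4, and 19.7% and 19.4% on Day7. Foxa2 was at 3.77 and Gata6 at 1.61 on Day3, and they were at 4.94 and 4.27 on Day4. On the 75th percentile scale 5 mesoderm markers were raised and 1 lowered on Day2, and 4 and 0 of the endoderm markers. On that scale 19.3% of all genes were raised and 6.45% lowered on Day2. Of 9 markers of skin and neural crest, 0 were raised 2-fold and 4 lowered on Day2, 0 and 2 on Day3, 3 and 2 on Day4, and 1 and 3 on Day7. These are after quantile normalization, where the shares of all genes were 9.88% and 10.4% on Day2, 11.9% and 7.83% on Day3, 13.5% and 11.5% on Day4, and 19.7% and 19.4% on Day7. Their summed signal lay between 22711 on Day7 and 91002 on Day4, and Krt18 alone made up from 59.5% to 79.5% of it. Their part in the HoxD values was not tested.

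For 6 of the 9 HoxD genes the closest profiles over the 5 arrays were sought, and the nearest 5 included no other HoxD gene. Hoxd10, Hoxd11 and Hoxd12, each well above background on 1 array, were left out. Likeness was the Euclidean distance between mean-centred log2 profiles with dim values at the floor, over 5810 genes well above background on at least 2 arrays and ranging at least 4-fold. For Hoxd4 the nearest were Zscan4c (1.25), Hoxb8 (1.40), Zscan4a (1.49), Gm13043 (1.59) and Zscan4f (1.64). The Zscan4 genes are near-identical copies, so their probes may read each other. For Hoxd3 they were Rai2 (1.35), Podxl2 (1.76), Mir124-2hg (1.87), Robo2 (1.89) and Sox9 (1.93), and for Hoxd8 Sod3 (0.64), Gm1141 (0.77), Lbp (0.78), Ccl2 (0.87) and Svep1 (0.88). For Hoxd1 they were Fbxl8 (0.30), Hba-a1 (0.31), Msrb3 (0.44), H1f10 (0.46) and Naglu (0.51), and for Hoxd13 Gm6812 (0.15), Rps6ka1 (0.19), Phldb3 (0.21), Itgb5 (0.23) and Gpr160 (0.23). The nearest 5 to Hoxd9 all lay at the detection level in ES cells, on Day3 and on Day7, a floor that dim genes share, and are not named. Some genes named above also lay at that level in ES cells. They were Rai2, Podxl2, Mir124-2hg and Robo2 for Hoxd3, Sod3, Gm1141 and Lbp for Hoxd8, and Zscan4c and Hoxb8 for Hoxd4. Hoxd3 itself was at that level in ES cells, so part of its likeness to these genes is set by the floor. The closest HoxD gene to Hoxd4 was Hoxd8, at rank 31 (2.68), and the closest to Hoxd3 was Hoxd4, at rank 98 (3.91). Profiles of genes that change little lie closer together by construction, so the distances of different genes are not comparable, and with 5 arrays many profiles are alike.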

How the data were processed

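The members and the gene lists were chosen with earlier results of these data known. Per the labels, total RNA (0.5 ug) was labelled with Cy3 and the arrays were read with Agilent Feature Extraction 10.5.1. The authors deposited each array's spot intensity after the scanner software's background subtraction, with flags per spot, and a table of log2 values. That table equalled the log2 processed intensity minus each array's 75th percentile (within 0.05 for 100% of probes; medians -3.55, -2.62, -3.72, -3.54 and -3.67 from ES cells to Day7). Here control and outlier spots were left out, spots were averaged per probe as log2 intensity, and arrays were quantile-normalized (limma 3.58.1, R 4.3.3), since a legend of the study names quantile analysis. Later steps used Python 3.11.15. Of 55681 mouse probes, 26300 were matched by accession to 19897 symbols of RefSeq (GRCm38.p6, used for names, gene order and upstream sequences and not to place probes, since the array was designed on an earlier build). The brightest probe stood for its gene, and none of the HoxD spots was saturated. Dim probes (not well above background) were raised to the array's detection level, the lowest value of any probe read as well above background there (log2 4.18, 2.60, 5.22, 4.05 and 4.66 from ES cells to Day7), unless their own value was higher, and changes against them are lower bounds. A pair of arrays gave no fold where the gene was dim on both or its brighter value lay under the other array's detection level. Precision is limited by the number of arrays. The 38 Hox genes analysed here, the genes next to the cluster, the lists and the 5 nearest profiles could be named. Some further results are not reported here. The code was run on the ES array against a simulated copy of it, where 200 of 200 changed genes were recovered with 0 false calls. The reliability of the HoxD calls was not tested. Alternatives were a 75th percentile shift, no normalization, normexp (offset 50), the deposited table, other filters on dim probes, an ERCC floor, folds of 1.5 and 4, leaving out Day2 or Day7 before normalization, and the mean over probes.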

Additional observations from a re-analysis of the deposited data

Results flagged for a closer look

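On the Day2 array 65.6% of 96 ERCC probes passed the background flag, against between 4.17% and 9.38% on the other arrays. These probes have no mouse sequence and entered the comparisons only as a reference level and as the alternative ERCC floor. All 7 HoxD genes read as well above background on Day2 had signals under the 95th percentile of these probes.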

How the results depend on the processing

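The number of HoxD genes at least 2-fold above ES cells on Day2, 1 after quantile normalization, was 5 with a 75th percentile shift, no normalization or the deposited table, 2 with the other detection flag, no filter on dim probes or a 1.5-fold rule, and 0 with normexp, both arrays required, an ERCC floor or a 4-fold rule. On Day3 the count of 5 became 1 with both arrays required and 2 with the ERCC floor. On Day4 it became 1 with both arrays required, and on Day7 the count of 4 became 2 with normexp, the ERCC floor or 4-fold and 1 with both required. The number lowered from ES cells to Day2, 0, became 1 at 1.5-fold. From Day2 to Day3 the 5 raised became 3 with the 75th percentile shift, no normalization or the deposited table and 2 with the ERCC floor, and the 0 lowered became 3 under the first 3 of these and 2 with the other flag or no filter. From Day3 to Day4 the 3 raised became 1 without normalization or at 4-fold. From Day4 to Day7 the 1 raised became 0 at 4-fold, and the 5 lowered became 2 without normalization or at 4-fold and 3 with normexp or both arrays required. In ES cells 7 HoxD genes passed the other detection flag and 1 the ERCC level, against 2 well above background, and on Day2 0 passed the ERCC level, against 7. Hoxd9 reversed from Day2 to Day3 without normalization, to -0.35 from 2.43 on the log2 scale. The cause of these differences was not tested, except that requiring both arrays leaves fewer genes. Leaving out Day2 or Day7 before quantile normalization moved no HoxD count by over 1.5 times and turned no direction. Averaging probes could change no HoxD value, since each gene had 1 probe. On the 75th percentile scale the median of all genes from ES cells to Day7 was -0.36, against -0.07. Normexp was run on median spot signals, and slide could not enter as a block, because Day7 alone was on its slide. No paired analysis was possible because no time point had replicates. Signal over background limits what can be said of Hoxd9 to Hoxd12.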
